A study of Mus musculus with 6 samples.

Results

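The miR-181 family was examined in mouse nephron progenitor cells, the cells of the outer embryonic kidney that give rise to nephrons, at 2 stages, E14.5 of gestation and P0, when the pups were born. Its members were 7 mature miRNAs chosen by name (mmu-miR-181a-5p, mmu-miR-181b-5p, mmu-miR-181c-5p, mmu-miR-181d-5p, mmu-miR-181a-1-3p, mmu-miR-181a-2-3p and mmu-miR-181c-3p, written without the species prefix where no value is introduced), of 1034 mature miRNAs in the deposited table, and all 7 were found. Both groups were CD1 mice, with 3 samples each, and the labels named no allele or drug treatment. Each sample was the pooled kidneys of 1 litter, up to 24 of them, from which cortical cells were released by a 15 minute digestion and progenitors were captured on beads with an antibody against the integrin Itga8. No batch or date of sequencing was named in the labels. The table held miRNAs alone, so protein-coding markers of nephron progenitors were not used here.

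miRNAs are short RNAs cut from hairpin precursors. Each hairpin can give a strand from its 5′ side (5p) and one from its 3′ side (3p), and the strand kept in the silencing complex pairs with target mRNAs mainly through its seed, bases 2 to 8. The miR-181 family is conserved among vertebrates and is best known from thymocytes, where miR-181a tunes the sensitivity of T-cell receptor signalling, and it is also expressed in endothelium and brain. Because the 5p strands of different hairpins are alike or identical, the 3p strands are the better label of which locus was active.

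The 4 5p strands share 1 seed, and their mature sequences are shown because the stage difference ran between strands that differ by few bases. RefSeq (GRCm38.p6) held all 10 strands of the family. The capitals mark the seed.
miR-181a-5p: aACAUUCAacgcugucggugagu
miR-181b-5p: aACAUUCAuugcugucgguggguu
miR-181c-5p: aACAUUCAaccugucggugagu
miR-181d-5p: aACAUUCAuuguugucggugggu

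No other miRNA of the deposited table with a RefSeq sequence (885 names) had the seed ACAUUCA. Counting from 1 at the 5′ end, miR-181d-5p differed from miR-181b-5p by the substitution C12U over their 23 shared positions, and miR-181b-5p was 1 base longer. miR-181b-5p differed from miR-181a-5p by A9U, C10U and A21G. miR-181c-5p was 1 edit (1 missing base) away from miR-181a-5p. How the authors' counting divided reads with sequence errors or trimmed ends between such names was not given in the sources used here.

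The 3p strands are shown because they tell the loci apart, again with the seed in capitals.
miR-181a-1-3p: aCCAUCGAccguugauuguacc
miR-181a-2-3p: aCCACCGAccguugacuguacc
miR-181c-3p: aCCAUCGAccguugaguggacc

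miR-181a-2-3p differed from miR-181a-1-3p by U5C and U16C, of which U5C lies in the seed. miR-181c-3p kept the seed of miR-181a-1-3p and differed from it by U16G and U19G. The 3 remaining 3p strands of the family, miR-181b-1-3p, miR-181b-2-3p and miR-181d-3p, were not members and are given below only beside their neighbours.

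The 6 hairpins lie in 3 pairs, and all 12 mature positions in RefSeq (GRCm38.p6) were those of the deposited table. On chromosome 1, plus strand, miR-181a-5p lies at 137966468 to 137966490, miR-181a-1-3p at 137966508 to 137966529 and miR-181b-5p at 137966650 to 137966673. In GENCODE M21 this pair sits in an intron of the non-coding transcript Gm4258, and the miR-181b-1 hairpin also overlaps an exon of the lincRNA A430106G13Rik. On chromosome 2, plus strand, the second copy of miR-181a-5p lies at 38852741 to 38852763, miR-181a-2-3p at 38852785 to 38852806 and the second copy of miR-181b-5p at 38853845 to 38853868. This pair lies antisense to an intron of Nr6a1, which encodes an orphan nuclear receptor. On chromosome 8, minus strand, miR-181c-5p lies at 84178924 to 84178945, miR-181c-3p at 84178885 to 84178906 and miR-181d-5p at 84178759 to 84178781. They lie in an intron of Nanos3, a germ cell gene, on its strand. The hairpins of a pair are 97 bases apart on chromosome 1, 1019 on chromosome 2 and 85 on chromosome 8.

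Values are the deposited TPM, reads per base of the mature miRNA scaled to the same total in every library. How evenly strands of different sequence were captured was not tested, so levels of different miRNAs are compared as TPM only. Recovered reads ranged from 2649506 to 34934526 per library, and the smallest libraries were E14.5 replicates 1 and 3. No member had fewer than 283 reads in any library. P0 replicate 1 stood apart: on the first principal component, with 74.8% of the variance, it scored 1.14, against −26.2 to −16.2 for the E14.5 libraries and 33.2 and 33.5 for the other P0 libraries. Member differences that it moved are also given without it. The median log2 fold change of the 670 tested miRNAs, P0 over E14.5, was −1.20 in TPM. It was −0.17 in median-of-ratios scaled values (called scaled values from here on), for which each library is divided by its median ratio to the average library. Each member is therefore reported on both scales, and ratios between members inside a library depend on neither.

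The first comparison was of the 5p strands between the stages. At E14.5, with 1 deposited row per name, 3 strands led the family. miR-181a-5p had 1355 ± 554 TPM (SD, n = 3), miR-181d-5p 1091 ± 78.0 and miR-181b-5p 1064 ± 228, and these 3 did not differ beyond their spread. At P0, miR-181a-5p stood alone at the top with 1351 ± 182 TPM, above miR-181b-5p with 489 ± 15.0 and miR-181d-5p with 307 ± 20.5. miR-181a-5p and miR-181b-5p each have a second deposited row, and whether the rows split reads or count the same reads again was not given in the sources used here, so these levels and the E14.5 order depend on it. With both rows summed, E14.5 levels were 2703 ± 1107 TPM for miR-181a-5p and 1690 ± 328 for miR-181b-5p, and all miR-181a-5p libraries then lay above those of miR-181d-5p. The summed TPM of the 4 5p strands was 3142, 4502 and 3285 in E14.5 replicates 1 to 3 and 2124, 2153 and 2410 in P0 replicates 1 to 3. The stages did not overlap (p = 0.1, exact two-sided permutation, the smallest that 3 samples against 3 allow). The log2 difference of the sum was −0.69 in TPM but 0.60 in scaled values (exact permutation p = 0.2), and the sign of the sum's difference therefore changed with the scaling.

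**Figure D1:**
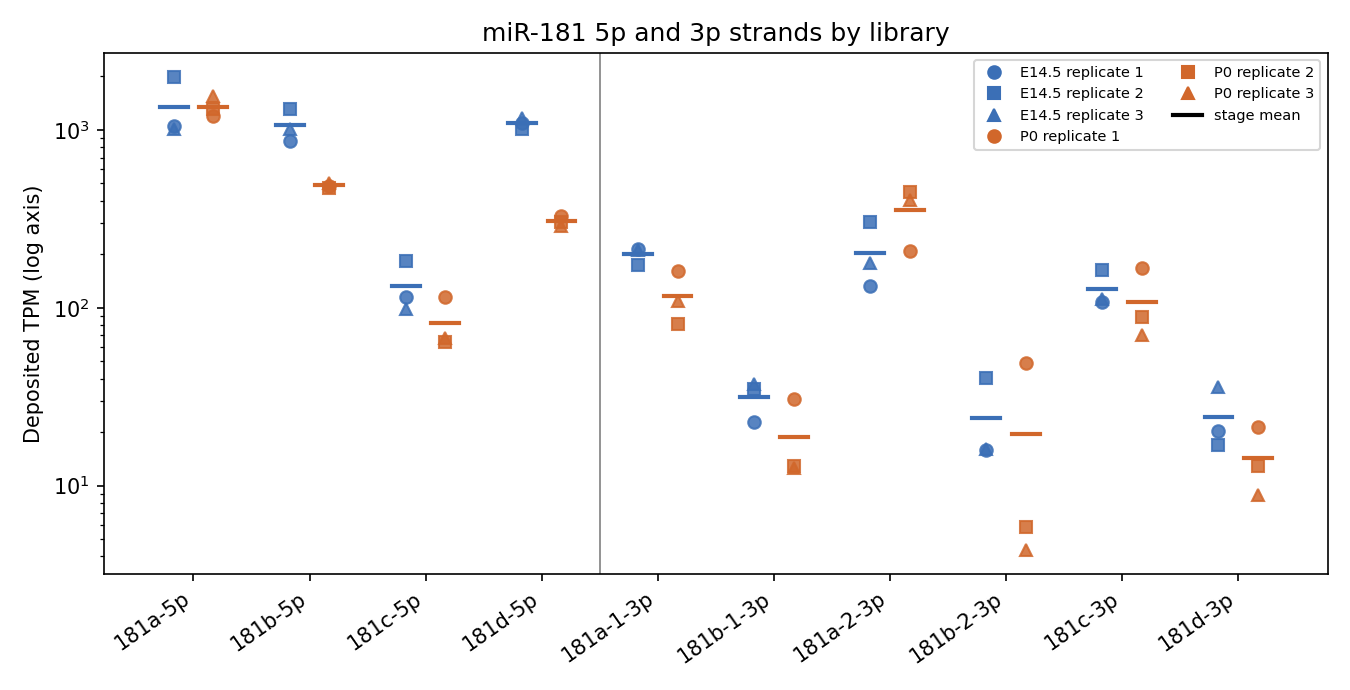
Deposited TPM (log axis) of the 7 members and the 3 other 3p strands of the same loci in each of the 6 libraries. Points are libraries, short lines are stage means, and colours are stages. miR-181d-5p and miR-181b-5p are lower in all 3 P0 libraries than in any E14.5 library, whereas the stages overlap for miR-181a-5p.

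miR-181d-5p, from the second hairpin of the chromosome 8 pair, fell between the stages in TPM. mmu-miR-181d-5p had 1101, 1008 and 1163 TPM in E14.5 replicates 1 to 3 and 329, 304 and 289 TPM in P0 replicates 1 to 3. Each P0 library lay below each E14.5 library, and the libraries of a stage differed by at most 1.15 times. The log2 difference was −1.82 (SE 0.48, limma adjusted p = 0.0136), which was −0.63 relative to the median of all tested miRNAs. The 3p strand of the same hairpin, miR-181d-3p, differed by −0.74 in TPM (limma adjusted p = 0.333). miR-181d-5p was the 1 member of 7 past the threshold of 0.05 in TPM, where 34.2% of the 670 tested miRNAs were called (1.34% higher and 32.8% lower). In scaled values its difference of −0.53 did not pass (SE 0.40, limma adjusted p = 0.370). In TPM the call was also lost without E14.5 replicate 1 (limma adjusted p = 0.0567), E14.5 replicate 3 (0.0798), P0 replicate 2 (0.0691) or P0 replicate 3 (0.0647), with log2 fold changes between −1.82 and −1.78. Leaving out P0 replicate 1 gave −1.87 in TPM (limma adjusted p = 0.000202) and −0.40 in scaled values (0.219).

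mmu-miR-181b-5p, made from hairpins on chromosomes 1 and 2, had 870, 1316 and 1007 TPM in E14.5 replicates 1 to 3 and 487, 474 and 504 TPM in P0 replicates 1 to 3. The stages did not overlap, and the P0 libraries lay within 1.06 times of each other. On the log2 scale it differed by −1.10 in TPM (SE 0.48, limma adjusted p = 0.0882), and by 0.19 in scaled values (SE 0.43, limma adjusted p = 0.786). It passed the threshold in TPM without P0 replicate 1 (log2 fold change −1.10, limma adjusted p = 0.00813), but not in scaled values (0.38, limma adjusted p = 0.308). These values are from the chromosome 1 row, and the row of the identical chromosome 2 copy held 55.5% to 80.3% of them, also without overlap between the stages.

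mmu-miR-181a-5p, made from the other hairpin of those 2 pairs, had 1054, 1994 and 1017 TPM in E14.5 replicates 1 to 3 and 1193, 1310 and 1550 TPM in P0 replicates 1 to 3. E14.5 replicate 2 was the highest of all and the other E14.5 libraries were the lowest, so the stages overlapped. The log2 fold change was 0.06 in TPM (SE 0.49, limma adjusted p = 0.935), which lay 1.26 above the median of all tested miRNAs. In scaled values it was 1.35 (SE 0.49, limma adjusted p = 0.0857). Without P0 replicate 1 it was 0.15 in TPM (limma adjusted p = 0.718) and 1.62 in scaled values (limma adjusted p = 0.00917). The 2 genomic copies of the strand are identical, and the deposited row of the chromosome 2 copy held 99.3% to 99.7% of the TPM of the chromosome 1 row.

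mmu-miR-181c-5p, the least abundant 5p strand, had 115, 183 and 98.9 TPM in E14.5 replicates 1 to 3 and 115, 64.4 and 67.6 TPM in P0 replicates 1 to 3. P0 replicate 1 lay inside the E14.5 range and the other P0 libraries below it. In TPM it differed by −0.68 on the log2 scale (SE 0.56, limma adjusted p = 0.333), and in scaled values by 0.60 (limma adjusted p = 0.390). Leaving out P0 replicate 1 gave −0.94 in TPM (limma adjusted p = 0.0519) and 0.52 in scaled values (0.299), and leaving out E14.5 replicate 2 gave −0.42 in TPM (0.587).

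Among the 3p members, miR-181a-2-3p of chromosome 2 was the one with a higher mean TPM at P0, whereas in scaled values all 3 had positive differences. mmu-miR-181a-2-3p had 132, 302 and 179 TPM in E14.5 replicates 1 to 3 and 209, 448 and 404 TPM in P0 replicates 1 to 3. P0 replicate 1 lay within the E14.5 range, and P0 replicates 2 and 3 lay above it. The log2 fold change was 0.80 in TPM (SE 0.57, limma adjusted p = 0.273). In scaled values the strand rose by 2.09 (SE 0.59, limma adjusted p = 0.0486), the 1 member of 7 called on that scale, where 10.9% of the tested miRNAs were called (5.67% higher and 5.22% lower). The call was lost when libraries were scaled by their upper quartile (2.09, limma adjusted p = 0.0545). It was also lost in limma-voom on the recovered reads (2.03, limma adjusted p = 0.0878), which called 0 members and 4.18% of all miRNAs (2.54% higher and 1.64% lower). Before adjustment 2 of 7 members had a limma-voom p under 0.05, beside 192 of the 670 tested miRNAs. Without P0 replicate 1 the strand rose by 1.14 in TPM (limma adjusted p = 0.0236), and by 2.62 in scaled values (limma adjusted p = 0.00154). In the authors' deposited table it was the 1 member of 7 with an adjusted p-value under 0.05 (log2 fold change 1.85, standard error 0.67, adjusted p = 0.0410), where 10.4% of all miRNAs had one (5.13% higher and 5.32% lower).

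mmu-miR-181a-1-3p, the equivalent strand of chromosome 1, had 215, 175 and 210 TPM in E14.5 replicates 1 to 3 and 161, 81.4 and 108 TPM in P0 replicates 1 to 3. All P0 libraries lay below the E14.5 libraries. The log2 fold change of −0.82 in TPM did not pass (SE 0.54, limma adjusted p = 0.233), nor did that of 0.46 in scaled values (limma adjusted p = 0.450). It passed in TPM without P0 replicate 1 (−1.08, limma adjusted p = 0.0176) but not in scaled values (0.39, limma adjusted p = 0.298).

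mmu-miR-181c-3p of chromosome 8 had 107, 164 and 112 TPM in E14.5 replicates 1 to 3 and 167, 88.2 and 70.2 TPM in P0 replicates 1 to 3. P0 replicate 1 was the highest library and P0 replicates 2 and 3 were the lowest. The TPM difference was −0.31 on the log2 scale (SE 0.57, limma adjusted p = 0.672), the scaled difference 0.98 (SE 0.46, limma adjusted p = 0.163). The TPM difference ranged from −0.66 without P0 replicate 1 (limma adjusted p = 0.138) to −0.045 without P0 replicate 3 (0.966), and the scaled one was 0.80 without P0 replicate 1 (0.102).

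Over the 7 members, the stages did not overlap for 3 (miR-181a-1-3p, miR-181b-5p and miR-181d-5p), all lower at P0, beside 49.6% of all tested miRNAs without overlap (3.13% higher and 46.4% lower). The median log2 fold change of the members was −0.68 in TPM and 0.60 in scaled values, beside −1.20 and −0.17 for all tested miRNAs. Without P0 replicate 1, 4 of the 7 passed in TPM (1 higher and 3 lower), where 61% of miRNAs were called (7.98% higher and 53% lower). In scaled values without that library 2 of the 7 passed, both higher, where 48% were called (21.9% higher and 26.1% lower).

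**Figure D2:**
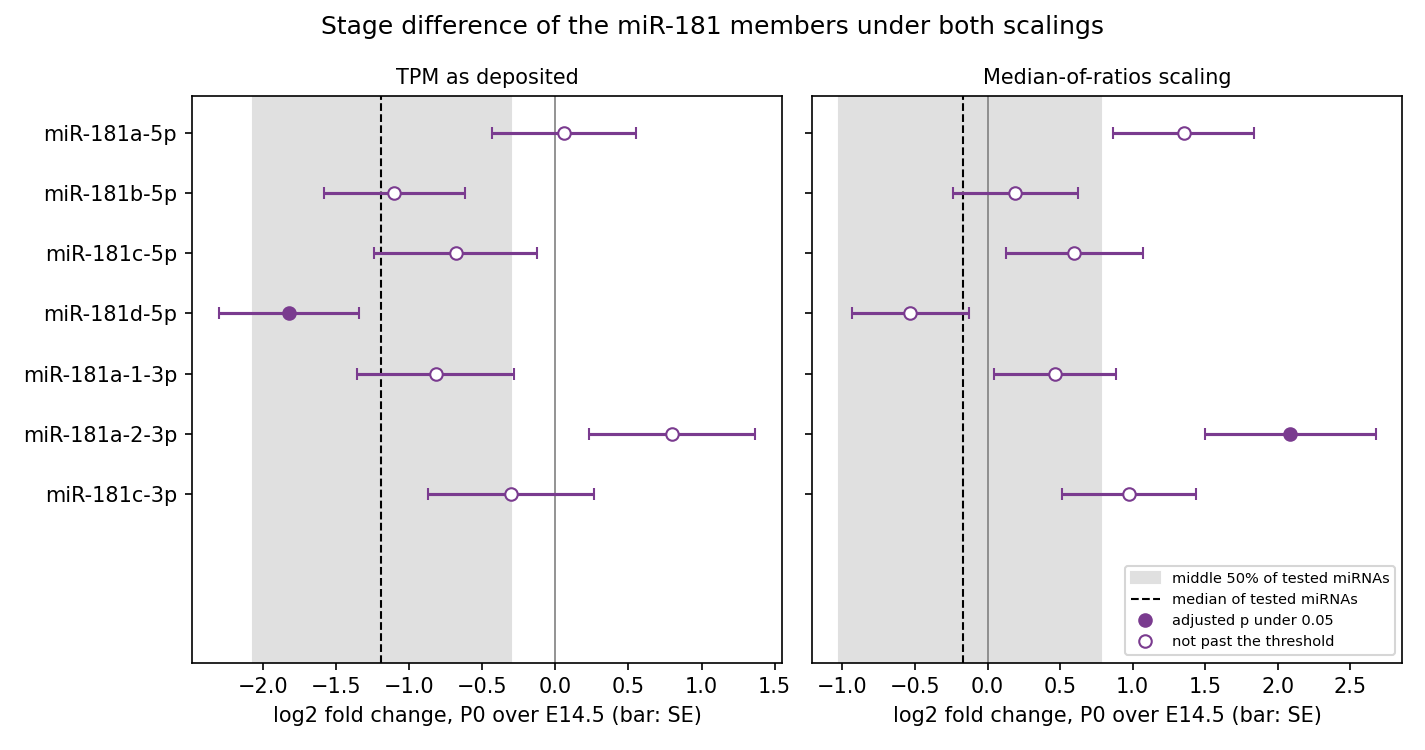
Limma log2 fold change, P0 over E14.5, of each member in TPM (left) and in scaled values (right), on the log2(value + 1) scale. Bars are SE, filled points have an adjusted p under 0.05, the dashed line is the median of the 670 tested miRNAs and the grey band their middle 50%. The scaling moves all members upward, and miR-181a-2-3p and miR-181d-5p stay the highest and the lowest of the 7 in both panels.

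Ratios between members inside a library were compared next, because a factor common to a library cancels in them. The ratio of miR-181d-5p to miR-181a-5p was 1.04, 0.505 and 1.14 in E14.5 replicates 1 to 3 and 0.276, 0.232 and 0.186 in P0 replicates 1 to 3. The P0 values lay below all E14.5 values, and the geometric mean was 3.70 times lower at P0. With both miR-181a-5p rows summed the geometric means were 0.424 and 0.115, in place of 0.845 and 0.228. The ratio of miR-181b-5p to miR-181a-5p was 0.825, 0.660 and 0.990 at E14.5 and 0.408, 0.362 and 0.325 at P0 (replicates 1 to 3), again without overlap and 2.24 times lower at P0. miR-181a-5p thus took 35.9% ± 7.0 (SD, n = 3) of the 5p reads at E14.5, counting 1 deposited row per name, and its P0 share was 59.9% ± 4.04 (n = 3). With all rows of a name summed the shares were 46.4% ± 7.22 and 67.7% ± 2.53. With 1 row per name its share was lowest in E14.5 replicate 3, at 30.6% (95% Wilson interval 29.9 to 31.3), and highest in P0 replicate 3, at 63.8% (63.4 to 64.2).

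Both strands of the chromosome 8 pair could also be set against each other. miR-181d-5p was 9.54, 5.50 and 11.8 times as abundant as miR-181c-5p in E14.5 replicates 1 to 3 and 2.87, 4.71 and 4.27 times in P0 replicates 1 to 3, so the 5p strands of the neighbouring hairpins did not keep 1 ratio. For their 3p strands, the ratio of miR-181d-3p to miR-181c-3p was 0.189, 0.103 and 0.322 at E14.5. At P0 it was 0.128, 0.145 and 0.126, inside the E14.5 range. The 5p and 3p strands of miR-181c were about equally abundant, with ratios of 1.08, 1.12 and 0.884 at E14.5 and 0.687, 0.731 and 0.963 at P0. The stages overlapped in that ratio. miR-181a-5p was 3.22 times the sum of its 3p strands at E14.5 and 2.89 times at P0 (geometric means), with overlap. These ratios set 1 of its 2 rows against the 3p strands of both loci, and with both rows summed they were 6.41 and 5.76.

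Of the 9 ratios, 3 did not overlap between the stages (miR-181d-5p to miR-181a-5p, miR-181b-5p to miR-181a-5p and miR-181d-5p to miR-181c-5p). Each of these had p = 0.1 in an exact two-sided permutation test, the smallest this test can give for 3 samples against 3, and 0.257 after Benjamini-Hochberg adjustment over the 9. That test could therefore not bring a ratio past 0.05, and no model-based test of the ratios was run. With 1 library left out in turn, which cannot turn the sign of groups that do not overlap, their log2 differences ranged from −2.26 to −1.67, from −1.31 to −1.02 and from −1.45 to −0.91, in the order named.

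**Figure D3:**
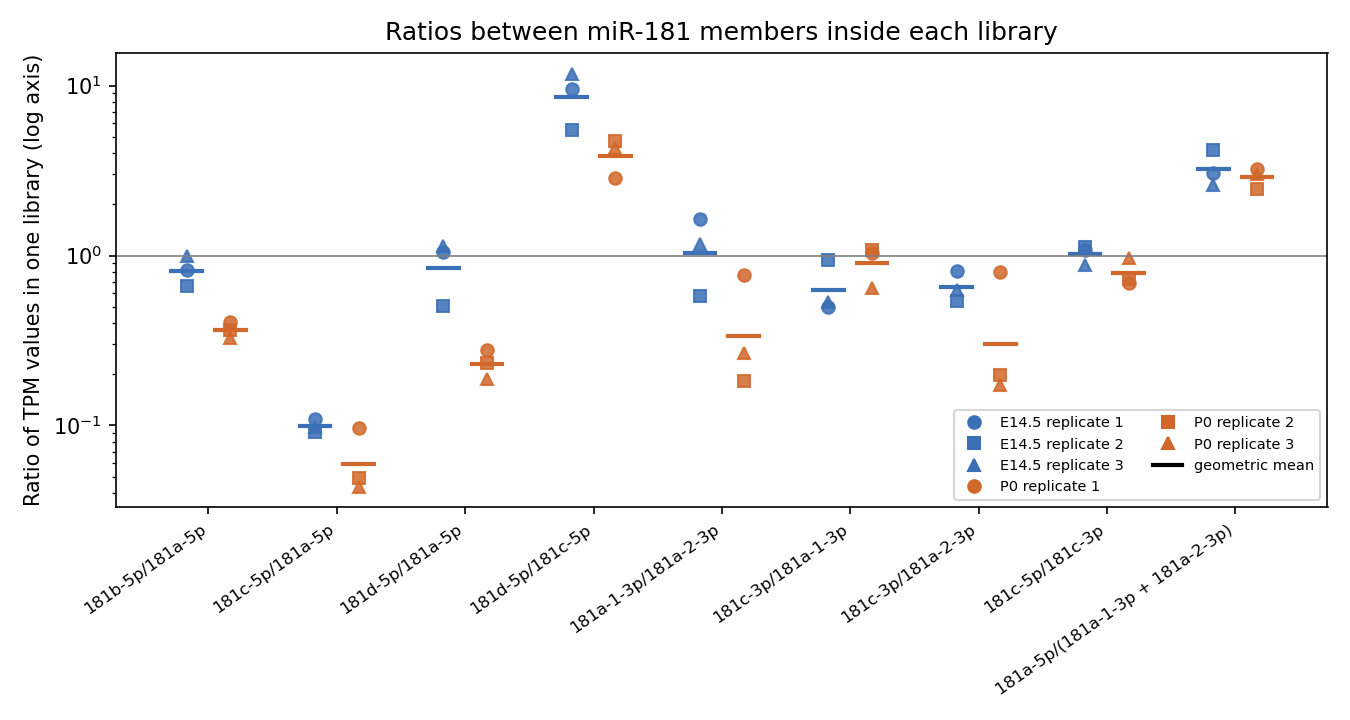
Ratio of the TPM values of named members inside each library (log axis), for the 9 ratios compared. Points are libraries, short lines are geometric means of a stage and colours are stages. The ratios of miR-181b-5p and miR-181d-5p to miR-181a-5p are lower in every P0 library, whereas P0 replicate 1 sits with the E14.5 libraries in the ratio of miR-181c-3p to miR-181a-2-3p.

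The 3p strands of the loci were then set against each other. The ratio of miR-181a-1-3p to miR-181a-2-3p was 1.63, 0.578 and 1.17 in E14.5 replicates 1 to 3 and 0.768, 0.182 and 0.268 in P0 replicates 1 to 3. E14.5 replicate 2 lay below P0 replicate 1, so the stages overlapped (p = 0.2, exact two-sided permutation). The log2 difference was −1.63 with all libraries and −2.23 without P0 replicate 1. The ratio of miR-181c-3p to miR-181a-2-3p was 0.813, 0.542 and 0.624 at E14.5 and 0.797, 0.197 and 0.174 at P0 (exact permutation p = 0.3), with P0 replicate 1 inside the E14.5 range. That log2 difference was −1.11 with all libraries and −1.81 without P0 replicate 1.

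Summed over both 3p strands of a pair, the chromosome 2 pair held 36.4% ± 9.36 (SD, n = 3) of the family's 3p reads at E14.5, and at P0 it held 59.3% ± 16.3 (n = 3). Chromosome 1 gave 38.9% ± 9.27 and 21.4% ± 7.85, and chromosome 8 gave 24.8% ± 0.127 and 19.3% ± 8.9. The P0 means without P0 replicate 1 were 68.7% for chromosome 2, 17.1% for chromosome 1 and 14.2% for chromosome 8 (n = 2). In E14.5 replicates 1 to 3 the chromosome 2 share was 28.9% (26.6 to 31.4, 95% Wilson), 46.9% (46.1 to 47.6) and 33.3% (31.6 to 35). In P0 replicate 1 it was 40.6% (40.0 to 41.3), in P0 replicate 2 it was 70.1% (69.3 to 70.8) and in P0 replicate 3 it was 67.2% (66.4 to 68.0). P0 replicates 2 and 3 lay above all other libraries, and P0 replicate 1 lay within the E14.5 range.

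**Figure D4:**
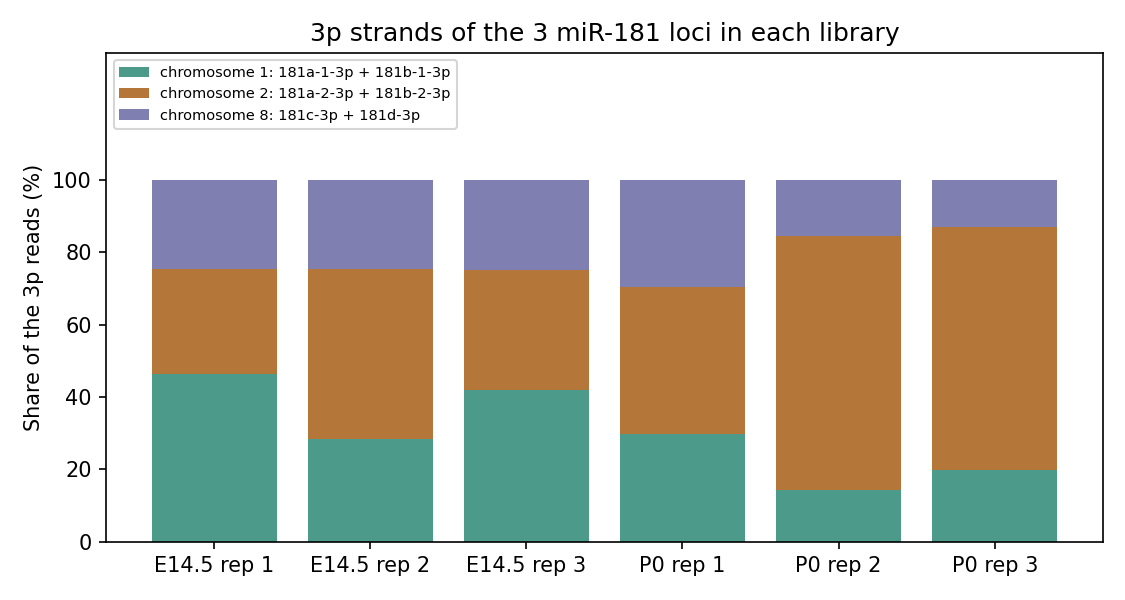
Share of the family's 3p reads (percent) given by each of the 3 loci in each of the 6 libraries, as stacked bars. The chromosome 2 pair gives 70.1% and 67.2% in P0 replicates 2 and 3, and 28.9% to 46.9% in the other 4 libraries.

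The higher chromosome 2 share of P0 replicates 2 and 3 lay in miR-181a-2-3p and not in its neighbour. miR-181b-2-3p had 15.9, 40.1 and 16.1 TPM in E14.5 replicates 1 to 3 and 48.6, 5.85 and 4.33 TPM in P0 replicates 1 to 3, so it was at its lowest where miR-181a-2-3p was at its highest. Its ratio to miR-181a-2-3p was 0.121, 0.132 and 0.0896 at E14.5 and 0.232, 0.0131 and 0.0107 at P0. In TPM it differed by −0.90 on the log2 scale (limma adjusted p = 0.383), and by −1.92 without P0 replicate 1 (limma adjusted p = 0.0114). Without that library the call was lost in scaled values (−0.58, limma adjusted p = 0.413) and in limma-voom (−0.96, limma adjusted p = 0.235). The neighbours miR-181b-1-3p and miR-181d-3p had ratios of 0.106 to 0.199 and of 0.103 to 0.322 to miR-181a-1-3p and miR-181c-3p over all 6 libraries. In TPM, miR-181b-1-3p differed by −0.81 (limma adjusted p = 0.288) and miR-181d-3p by −0.74 (limma adjusted p = 0.333), so 0 of these 3 strands passed with all libraries. Without P0 replicate 1, miR-181b-1-3p passed in TPM at −1.22 (limma adjusted p = 0.0380) but not in scaled values (0.19, limma adjusted p = 0.715). With all libraries 0 of the 3 had an unadjusted limma p under 0.05, the lowest being 0.199.

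The strands also differed in base composition. GC content was 59.1% in miR-181a-2-3p and 36.4% in miR-181b-2-3p, and among the 5p strands it was 47.8% in miR-181a-5p, 45.8% in miR-181b-5p, 45.5% in miR-181c-5p and 43.5% in miR-181d-5p. It was 59.1% in miR-181c-3p, 50% in miR-181a-1-3p, 38.1% in miR-181b-1-3p and 61.9% in miR-181d-3p. The part of base composition in the results was not tested.

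Marker miRNAs of other cell types in the bead fraction were summed as a measure of its content, and in such bulk samples fewer cells of a type and less RNA per cell cannot be told apart. The 5 leukocyte miRNAs, the cells in which miR-181 is best studied, summed to 797 to 1540 TPM at E14.5 and 507 to 751 at P0, with 1 of 5 called lower in TPM, where 32.8% of all tested miRNAs were. The 2 endothelial miRNAs summed to 26608 to 44921 TPM at E14.5 and 5634 to 8158 at P0, both called lower. The 5 epithelial miR-200 family strands summed to 4122 to 23183 TPM and 500.2 to 1542, all 5 called lower. The 5 stromal miRNAs summed to 22435 to 35100 TPM and 10791 to 19808 (1 higher and 2 called lower), and the 4 erythroid miRNAs to 242 to 417 TPM and 127 to 189 (1 called lower). In scaled values, where 5.67% of all tested miRNAs were called higher and 5.22% lower, the limma calls were 1 of 2 endothelial and 3 of 5 epithelial miRNAs lower, 1 leukocyte and 1 stromal miRNA higher, and 0 of the 4 erythroid miRNAs. Before adjustment 2 of the 4 erythroid miRNAs had p under 0.05 there, beside 227 of the 670 tested miRNAs. In limma-voom, where 4.18% of all tested miRNAs were called, the calls were 2 epithelial and 1 stromal, and 0 in the leukocyte, endothelial and erythroid lists. The median log2 fold change was negative on both scales for the endothelial, epithelial and erythroid lists, but turned from −0.86 in TPM to 0.41 in scaled values for the leukocyte list and from −1.25 to 0.04 for the stromal list. None of these 21 markers was at 0 in any library. Their part in the fall of miR-181d-5p in TPM was not tested.

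The miRNAs outside the family with the pattern most like that of miR-181a-5p were miR-383-5p, miR-99b-3p and miR-127-3p. Likeness was the root mean square difference of mean-centred log2(TPM + 1) over the 6 libraries, which was 0.20, 0.25 and 0.29 for these 3 and had a median of 1.10 over the 422 candidates with at least 10 TPM. miR-383-5p had 10.2, 27.5 and 12.3 TPM at E14.5 and 19.0, 18.8 and 19.2 TPM at P0, and like miR-181a-5p it was highest in E14.5 replicate 2. The same measure was 0.48 for miR-181a-2-3p, 0.61 for miR-181b-5p and 1.03 for miR-181d-5p, so the family's own strands were farther from miR-181a-5p than these 3.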

How the data were processed

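Small RNA libraries (QIAseq miRNA kit, per the labels' protocols) of 6 samples were compared. The build mm10, featureCounts and DESeq2 1.26.0 are named in the submitters' processing notes, and trimming, alignment, molecular tags and multi-mapping reads are not given in the sources used here. The authors deposited TPM per mature miRNA. Each TPM times the row's end minus start was a whole multiple of 1 read in 100% of values (tolerance 0.01 reads), and the recovered reads gave depths and intervals, which cover counting error only. The authors' deposited table also held a normalised signal (baseMean), a log2 fold change and its error, a score (the test statistic), p-values and adjusted p-values per row. Its fold changes are taken as P0 over E14.5 from their sign.

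Where a name had several rows, the one with the highest total was kept. Differences were tested with limma 3.58.1 (R 4.3.3, mean-variance trend) on log2(TPM + 1), which understates changes of low miRNAs, over the 670 miRNAs averaging 1 TPM or more, with the stage as the only term and Benjamini-Hochberg adjustment over all of them. Sums and ratios within a library (no pseudocount) were tested by exact permutation. The code was tested on simulated data. Alternatives were other scalings, filters and pseudocounts, limma-voom on recovered reads, summed rows, the replicate number as a block and leaving out each library. Named strands were the 7 members, the 3 other 3p strands of the loci and the 3 miRNAs nearest in pattern to miR-181a-5p. Members and lists were chosen with earlier results of these data known. The labels do not say more of the replicates than 1 litter pool each, so p-values measure the spread between litter pools.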

Additional observations from a re-analysis of the deposited data

How the results depend on the processing

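In TPM, 229 of 670 miRNAs and 1 of the 7 members passed the threshold. The count of all calls was 73 with median-of-ratios scaling, 58 with upper-quartile scaling, 28 in limma-voom and 77 with the replicate block and median-of-ratios scaling, and it ranged from 72 to 420 when a library was left out. The count of members was 0 with upper-quartile scaling and in limma-voom, where 8.66% and 4.18% of all miRNAs were called. Before adjustment 2 of 7 members had p under 0.05 in each, beside 227 and 192 of the 670 tested miRNAs. The count of members was 2 without P0 replicate 1 in both added settings (median-of-ratios scaling and limma-voom, chosen after seeing the data), where 48% and 48.9% of all miRNAs were called, and 0 to 4 when a library was left out, where 10.8% to 61% were called. It was 1 without filtering, with a minimum mean of 10 TPM, with 0.1 as pseudocount and with summed rows, where 21.2%, 40%, 30% and 33.4% of all miRNAs were called.

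The direction of most members depended on the scaling. For miR-181a-1-3p, miR-181b-5p, miR-181c-5p, miR-181c-3p, miR-181b-1-3p, miR-181b-2-3p and miR-181d-3p in that order, all negative in TPM, the log2 fold change was 0.46, 0.19, 0.60, 0.98, 0.42, 0.27 and 0.48 with median-of-ratios scaling, with or without the replicate block. It was 0.47, 0.20, 0.60, 0.98, 0.43, 0.28 and 0.49 with upper-quartile scaling and 0.48, 0.17, 0.57, 0.96, 0.38, 0.20 and 0.57 in limma-voom. Without P0 replicate 1 it was 0.39, 0.38, 0.52, 0.80, 0.19 and 0.34 for these strands other than miR-181b-2-3p with median-of-ratios scaling, and 0.41, 0.36, 0.48, 0.76, 0.086 and 0.44 in limma-voom. miR-181a-5p, at 0.06 in TPM, ranged from −0.11 to 0.37 when a library was left out, and was −0.08, −0.11 and −0.04 without E14.5 replicate 1, E14.5 replicate 3 and P0 replicate 3. The summed 5p level turned to 0.60 with median-of-ratios and 0.61 with upper-quartile scaling and was −0.79 to −0.53 when a library was left out. The ratio of miR-181a-5p to its 3p strands ranged from −0.30 to 0.035, positive without E14.5 replicate 2. The other 8 ratios kept their direction under each alternative run. The cause of these changes was not tested.

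After subtracting stage means, the samples numbered 1, 2 and 3 correlated with their namesakes at 0.19, 0.18 and 0.042, so the numbers were not taken as pairs. In 5 of 6 samples, all but P0 replicate 3, the highest correlation was with the same number. With the replicate block 247 miRNAs and 1 member (miR-181d-5p, limma adjusted p = 0.0166) were called in TPM, and the block changed no member's call under either scaling. The lowest count among the members was 283 reads and among all 10 strands 42 reads, both in E14.5 replicate 1. With 3 litter pools a stage, the exact permutation test used for the ratios could not go below 0.1.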

Other observations

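miR-181b-5p has identical mature sequences on chromosomes 1 and 2, but its 2 deposited rows were farther apart than those of miR-181a-5p, whose second row held 99.3% to 99.7% of the first. The chromosome 2 row had 530, 731 and 618 TPM in E14.5 replicates 1 to 3 and 304, 380 and 405 TPM in P0 replicates 1 to 3. That was 60.9%, 55.5% and 61.4% of the chromosome 1 row at E14.5 and 62.4%, 80.2% and 80.3% at P0. P0 replicates 2 and 3, the libraries in which miR-181a-2-3p of chromosome 2 was highest, were also those with the highest percentage for the chromosome 2 row. By contrast, miR-181b-2-3p, the 3p strand of the chromosome 2 hairpin of miR-181b, was lowest in these libraries, at 5.85 and 4.33 TPM. Because the mature sequences are identical, reads of miR-181b-5p alone do not tell the loci apart. The stages did not overlap in the percentage for the chromosome 2 row, and the difference was noticed in the data and was not tested.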
